A study of Homo sapiens with 12 samples.

Results

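C4-2 cells given the synthetic androgen R1881 together with TCE-5002 (2 libraries) were compared with C4-2 cells given R1881 alone (2 libraries), which made up 4 of the 12 libraries of the series. Libraries were chosen by their titles. C4-2 is a castration-resistant derivative of the human prostate cancer line LNCaP, and R1881, an androgen that cells metabolise slowly, was used at 1 nM. TCE-5002 is an inhibitor selective for the histone demethylase KDM7A that is also known to act on PHF8 and KDM2A at higher concentrations, so the values below belong to the compound and not to 1 enzyme. All groups were kept in medium with hormone-depleted serum, all carried R1881 and the DMSO vehicle, and inhibitor treatment lasted 72 h. For TCE-5002, the deposited series text names 100 µM whereas a lower concentration stands in the methods, so the dose behind these values was uncertain. A protocol field of the labels describes siRNA transfection, which no title of these libraries mentions. The other C4-2 groups were R1881 with 50 µM namoline, an inhibitor of the demethylase KDM1A, and R1881 with both inhibitors (combination). They held 2 libraries each and were used to estimate the spread and to compare the TCE-5002 effect with and without namoline.

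KDM7A (also JHDM1D) belongs, with PHF8 and PHF2, to a family of enzymes that carry a PHD finger and a Jumonji domain and remove repressive methyl groups from histone H3. KDM1A (LSD1) uses another chemistry and removes methyl groups that mark either active or repressed chromatin. Both have been studied as coregulators of the androgen receptor, the hormone-activated transcription factor that drives prostate luminal gene expression. Loss of an enzyme that removes a repressive mark can lower its direct target genes.

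The 8 C4-2 libraries held 14791602 to 20295282 gene counts, and the 2 TCE-5002 libraries held 20131812 and 18647712. The TCE-5002 replicates stood further apart than those of any other C4-2 group. Of 9905 genes above 10 CPM, the read count scaled to a common library size, 53 differed 2-fold or more between the TCE-5002 replicates, against 2, 8 and 5 in the R1881, namoline and combination groups. This difference ran with the GC content of the transcripts (Spearman's rho 0.803 across genes, which are not independent replicates), and rho was 0.551 between the R1881 replicates. Calls were therefore reported with and without each TCE-5002 replicate and after a correction for GC content. All 14 luminal epithelial markers were expressed, with a summed level of 3410 and 3600 CPM in the R1881 libraries and 3030 and 3320 CPM in the TCE-5002 libraries. Markers of lymphoid and myeloid cells summed to between 0.824 and 1.37 CPM in the 4 libraries, with CD3D, CD3E, CD3G, CD79A and TYROBP at 0. The mesenchymal markers summed to 81.0 and 82.2 CPM with R1881 and to 65.0 and 95.4 CPM with TCE-5002, most of it from COL1A1 and FN1, and ZEB2, COL3A1 and LUM were at 0. The neuroendocrine markers summed to 10.5 and 10 CPM with R1881 and to 19.8 and 38.4 CPM with TCE-5002, and without the glycolytic enzyme ENO2 they stood at 5.4 and 4.94 CPM with R1881 and 3.65 and 3.9 CPM with TCE-5002. CHGB, NEUROD1 and STMN2 were at 0.

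**Figure D1:**
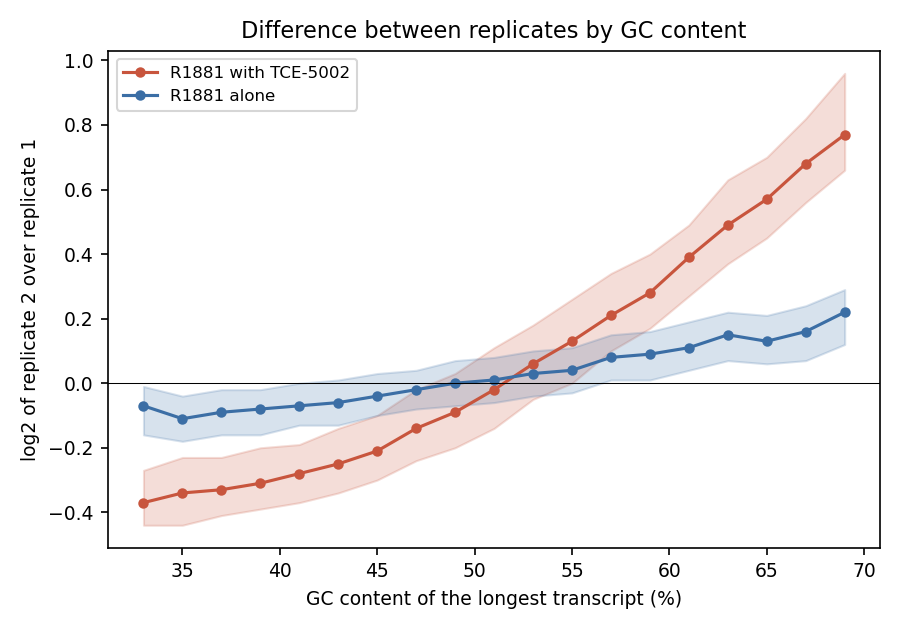
The log2 ratio of replicate 2 over replicate 1 (vertical axis) is plotted against the GC content of the longest transcript in percent (horizontal axis), with the median (points) and the interquartile range (band) of the genes in bins of 2 percentage points. From the lowest to the highest bin the median ran from -0.37 to 0.77 in the TCE-5002 group and from -0.07 to 0.22 in the R1881 group.

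TCE-5002 changed the expression of a large part of the transcriptome of C4-2 cells. Of 17702 genes tested, 2096 (11.8%) passed an adjusted p-value of 0.05 and a 2-fold change with edgeR's quasi-likelihood test, of which 893 (5.04%) were higher and 1203 (6.80%) were lower than with R1881 alone. At the adjusted p-value alone 6464 genes (36.5%) passed, of which 3514 (19.9%) were higher and 2950 (16.7%) lower. That number rested on the controls as well, and was 3397 without R1881 replicate 1 and 4213 without R1881 replicate 2. Higher genes made up 42.6% of the calls and 33.3% after the GC correction, which also moved the median log2 fold change of all genes from -0.00014 to -0.054. A call was kept where it passed with all libraries, passed in each fit that left out 1 of the TCE-5002 replicates, and passed with the GC correction in place. This left 1175 genes (6.64%), 468 higher (2.64%) and 707 lower (3.99%). Both TCE-5002 libraries lay on one side of both R1881 libraries in all 1175, which the choice of these genes favours, and in 65.0% of all genes tested. When the libraries were taken as 2 separate pairs by their number, with no library in common, the log2 changes of 9888 genes above 10 CPM correlated at r 0.859. Same-numbered libraries of the 2 groups deviated together (r 0.486), which favours agreement between pairs formed this way. Of the kept genes, 939 also passed in both fits that left out an R1881 replicate. The fold reached 4 or more in 142 kept genes that rose and 240 that fell.

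**Figure D2:**
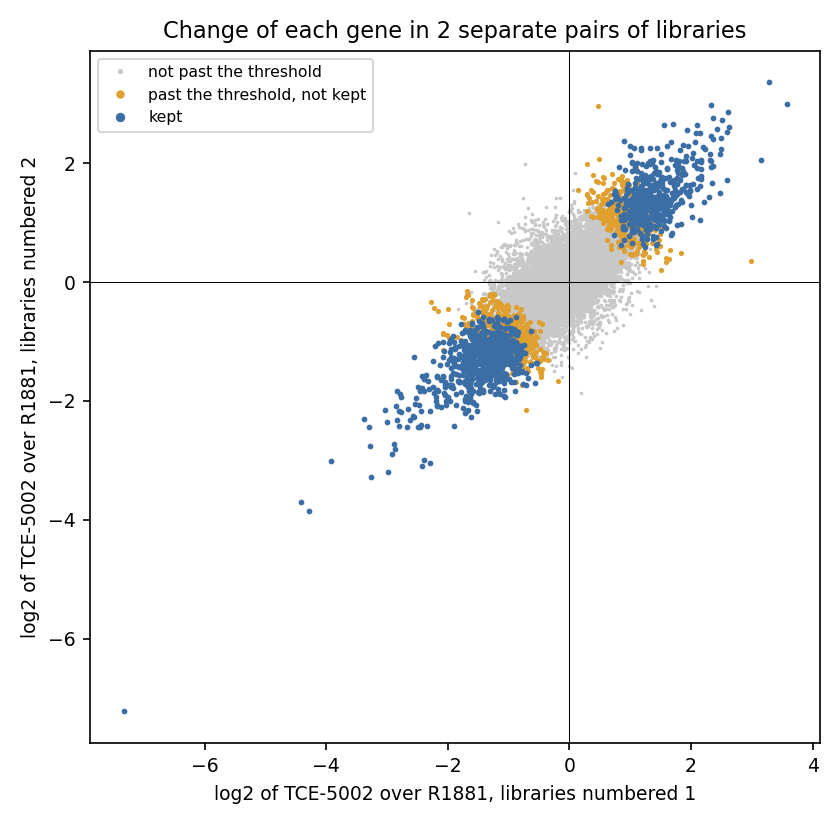
Each point is a gene, with its log2 ratio of TCE-5002 over R1881 in the libraries numbered 1 on the horizontal axis and in those numbered 2 on the vertical axis. The 1175 kept genes (blue) lie at the upper right and lower left, and calls that were not kept (orange) lie closer to an axis.

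Protein-coding genes were kept in similar numbers in both directions, 403 higher and 432 lower of 13270 tested. Among 2984 long non-coding RNAs, 42 (1.41%) were kept as higher and 207 (6.94%) as lower, and their median log2 fold change was -0.33 against 0.06 for coding genes. At a matched mean level of 1 to 5 CPM, 2.06% of 1216 long non-coding RNAs were kept as higher and 9.38% as lower, against 7.93% and 8.79% of 1627 coding genes. The median GC content of the transcripts was 48.6% over all genes tested, 52.4% in the kept genes that rose and 47.0% in those that fell, and the part of GC content in these numbers beyond the correction was not tested.

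The demethylase genes themselves changed little. KDM7A (ENSG00000006459, chromosome 7, 140084746 to 140177035 on GRCh38), whose product TCE-5002 targets, was at 99.9 and 95.0 CPM with R1881 and at 69.4 and 59.5 CPM with TCE-5002. Both treated libraries were below both controls, and the groups did not overlap, in either direction, in 65.0% of all genes tested. The log2 fold change was -0.60 ± 0.12 (SE, adjusted p = 0.00181), which did not reach 2-fold. This is a transcript level and does not measure the activity of the enzyme. PHF2, the third member of the family, fell by 0.39 on the log2 scale (adjusted p = 0.0152), and PHF8, at 166 and 170 CPM with R1881 and 191 and 187 CPM with TCE-5002, gave 0.17 ± 0.11 (adjusted p = 0.229). KDM2A, which removes methyl groups from another residue of histone H3, gave -0.06 ± 0.11 (adjusted p = 0.683). KDM1A rose from 74.1 and 72.4 CPM to 106 and 88.6 CPM, a log2 fold change of 0.41 ± 0.12 (adjusted p = 0.0134). The counts of list members that follow use the adjusted p-value alone. With all libraries they are to be read against the 19.9% of all genes that were higher and the 16.7% that were lower. After the GC correction 3890 of all 17702 genes were higher and 4307 lower. The number of genes passing also changed when a replicate was left out, and list counts from those fits are not to be read against these shares. Over the KDM7, KDM2 and KDM1 genes 1 of 7 was higher and 2 were lower, and over the KDM3 to KDM6 genes 2 of 11 were higher (KDM4B and KDM6A) and 3 lower (JMJD1C and KDM4A among them), with none at 2-fold in either list. KDM1A and PHF2 did not pass in the fits without either R1881 replicate, and of the KDM3 to KDM6 genes 6 were lower after the GC correction, 5 without either TCE-5002 replicate and 2 without either R1881 replicate. Histone methyltransferases and polycomb genes showed 4 of 31 higher and 10 lower, again with none at 2-fold, and 1 higher and 3 lower without R1881 replicate 1, or 2 and 6 without R1881 replicate 2. The methyltransferase gene KMT2D fell by 0.68 on the log2 scale.

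The largest change of any gene in the named set was that of TXNIP (ENSG00000265972, chromosome 1, 145992435 to 145996600), which encodes a thioredoxin-binding arrestin that limits glucose uptake. It was at 767 and 714 CPM with R1881 and at 4.26 and 4.27 CPM with TCE-5002. The replicates of each group lay close together, and the log2 fold change was -7.44 ± 0.15 (adjusted p = 3.14e-13). ARRDC4, a related arrestin that also responds to glucose, fell from 33.2 and 34.2 CPM to 5.93 and 3.85 CPM (log2 -2.78 ± 0.19, adjusted p = 2.83e-07). ARRDC3 fell by 1.35 on the log2 scale and was also kept, ARRDC1 rose by 0.56, and ARRDC2 gave 0.27 and did not pass. Of the regulators of this family, MLX (0.42) and MLXIPL (0.78, and 0.38 after the GC correction) rose and MLXIP (0.30) did not pass the test. TXN, the thioredoxin that TXNIP binds, rose from 89.6 and 77.3 CPM to 200 and 142 CPM (log2 1.04). In this list of 9 genes 4 were thus higher and 3 lower, or 3 and 3 after the GC correction. Its median log2 fold change of 0.30 does not describe the 3 arrestins that fell.

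The 250 bases before the TXNIP start are shown because they hold the pair of E-box-like elements through which MLX complexes are known to act on this gene. The element searched was CACGNG, 5 bases of any kind and CACGNG again, on either strand, and is in capitals in the RefSeq window chr1:145996580-145996829 (GRCh38.p14, minus strand), 5′ to 3′.
TXNIP: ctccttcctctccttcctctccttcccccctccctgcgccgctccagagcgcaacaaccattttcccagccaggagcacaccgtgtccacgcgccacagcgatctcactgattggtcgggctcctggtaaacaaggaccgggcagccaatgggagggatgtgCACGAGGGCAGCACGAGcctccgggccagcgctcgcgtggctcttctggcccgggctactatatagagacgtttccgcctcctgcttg
Of the genes in RefSeq's promoter table, with windows from 250 bases before to 50 after a start, 11759 matched a gene tested here and 16 of these (0.136%) held the element. It was found in 1 of the 9 genes of the list, TXNIP.

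Other protein-coding genes with large kept falls were IL2RB, BCL11B and FYN. IL2RB, a chain of the interleukin receptors of T and NK cells, was at 27.1 and 29.6 CPM with R1881 and at 0.913 and 1.58 CPM with TCE-5002 (log2 -4.50 ± 0.32, adjusted p = 4.06e-07). BCL11B, a T-cell transcription factor, fell from 27.1 and 27.4 CPM to 2.38 and 2.37 CPM (log2 -3.52 ± 0.20). FYN, a Src-family kinase, fell from 20.9 and 20.7 CPM to 3.30 and 3.42 CPM (log2 -2.63 ± 0.20). In each the groups were separated by more than 6-fold, while the lymphoid and myeloid markers stayed under 1.4 CPM in sum in every library. LAMP3, a lysosomal membrane protein, fell from 40.2 and 44.9 CPM to 4.67 and 4.48 CPM (log2 -3.21). TGM1, the transglutaminase of cornified epithelium, fell by 3.08 and COL16A1, a fibril-associated collagen, by 2.57 on the log2 scale, the latter with an antisense gene on the same position that the counting did not separate. PNLIPRP3, a lipase-related protein (log2 -3.21), MOV10L1, an RNA helicase of the germ-line piRNA pathway (log2 -2.70), and FIBIN, a secreted factor (log2 -2.88), completed the named falls together with ID2.

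Among the genes that rose most, NPPC, which encodes C-type natriuretic peptide, was at 3.83 and 4.56 CPM with R1881 and at 41.5 and 51.7 CPM with TCE-5002 (log2 3.48 ± 0.18, adjusted p = 5.43e-08). DIO3, the deiodinase that inactivates thyroid hormone, rose from 0.508 and 1.27 CPM to 11.5 and 13.6 CPM (log2 3.90 ± 0.62, adjusted p = 0.000266). CKB, the brain-type creatine kinase, was the most abundant of them and rose from 433 and 449 CPM to 1860 and 2810 CPM (log2 2.40 ± 0.19), or 1.97 after the GC correction. In all 3 the lowest treated library stood more than 4-fold above the highest control. CA12, a membrane carbonic anhydrase, rose from 3 and 2.92 CPM to 20.7 and 19.2 CPM (log2 2.75 ± 0.18). SLC29A1, the equilibrative nucleoside transporter of the plasma membrane, rose by 2.48 and MACROD1, an ADP-ribose hydrolase, by 2.31 on the log2 scale. CDCA7 and ZNF367, which are both known as cell-cycle regulated genes, gave log2 fold changes of 2.31 and 2.41. UBA7, the activating enzyme of the ubiquitin-like protein ISG15, gave 3.01, KCNQ1 2.81, MAB21L4 2.53 and the vesicle GTPase RAB3A 2.33. KCNQ1 shares its position with the antisense KCNQ1OT1, and RAB3A overlaps MPV17L2, so these values may include reads of the partner.

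**Figure D3:**
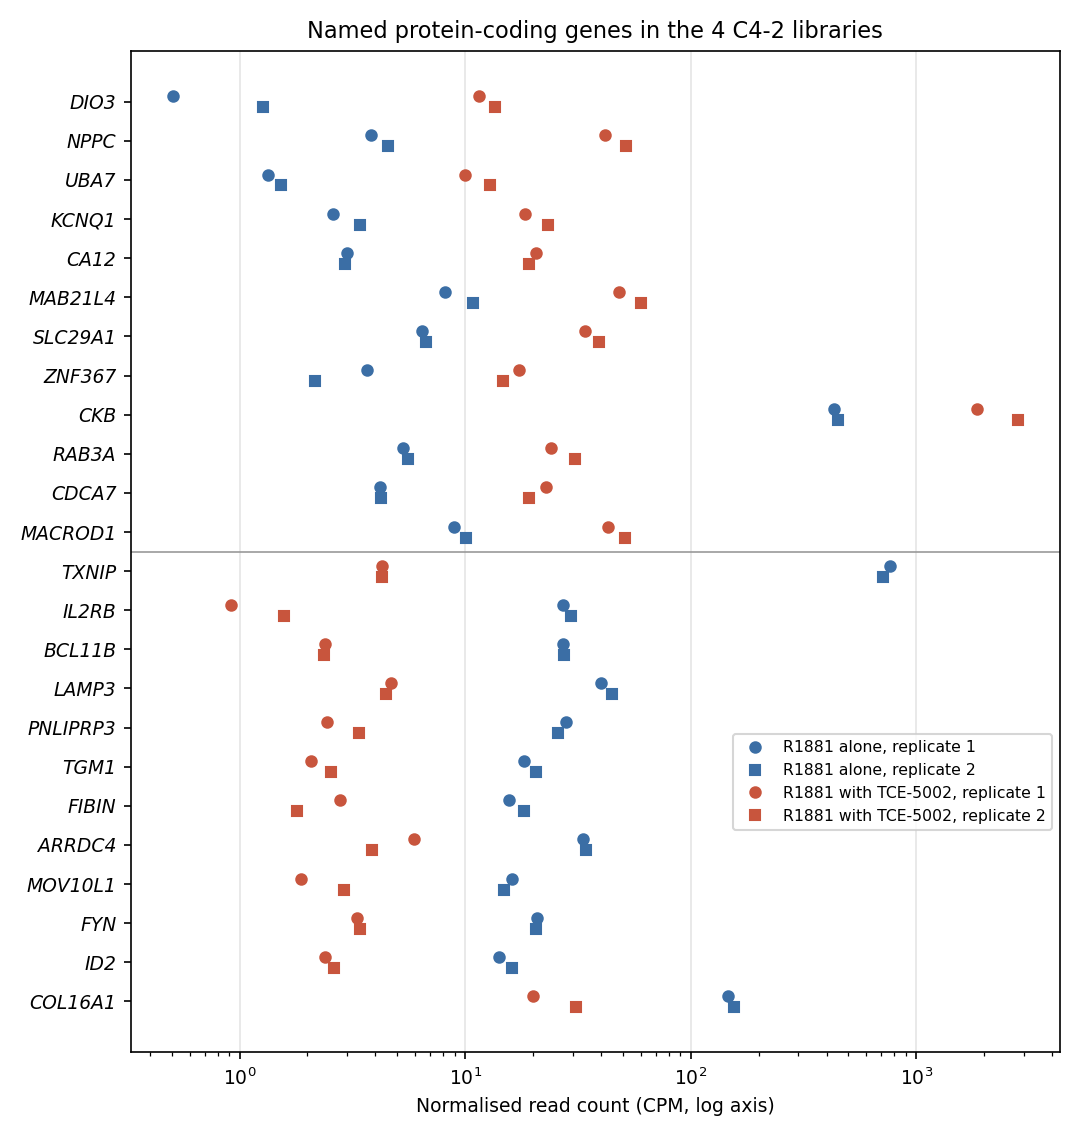
Normalised read counts (CPM, log axis) of the 12 rising (top) and 12 falling (bottom) named protein-coding genes, with 1 point per library, circles for replicate 1 and squares for replicate 2. In every gene both TCE-5002 libraries (red) lie on one side of both R1881 libraries (blue), and the gap is widest for TXNIP. The choice of these genes favours this separation, which was also seen in 65.0% of all genes tested.

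Genes of the cell cycle split by phase. Of 30 genes of G2/M and mitosis, 28 were lower and 1 was higher, with a median log2 fold change of -1.33, and 18 were kept as lower, against a background of 3.99% of all genes. Of 34 genes of DNA replication, 29 were higher and 1 was lower, with a median of 0.84, and 10 were kept as higher, against 2.64%. Without either TCE-5002 replicate in turn 27 mitotic genes were lower each time and 27 and 31 replication genes were higher. Without R1881 replicate 1 the counts were 21 mitotic genes lower and 26 replication genes higher, and without R1881 replicate 2 they were 27 and 24. In bulk RNA, fewer cells in a phase and less of these transcripts per cell cannot be told apart.

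CENPF, a kinetochore protein of G2 and mitosis, was at 252 and 176 CPM with R1881 and at 36.3 and 47.2 CPM with TCE-5002 (log2 -2.36 ± 0.23, adjusted p = 4.18e-06). HMMR, which organises the spindle, fell from 124 and 95.1 CPM to 26.2 and 25.8 CPM (log2 -2.07 ± 0.20). In both genes the R1881 replicates differed from each other by up to 1.5-fold and still lay far above the treated libraries. PLK1 (-1.97), CENPE (-1.93), CCNB1 (-1.56) and MKI67 (-1.44) fell as well and were kept. AURKB was at a log2 fold change of -0.14 and did not pass. CDK1, the kinase that CCNB1 activates, was the member that rose, from 64.9 and 49.5 CPM to 123 and 85.8 CPM (log2 0.86 ± 0.18, adjusted p = 0.00183).

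UHRF1, which brings the maintenance DNA methyltransferase to replicated DNA, led the replication genes with 1.62 and 1.58 CPM with R1881 and 8.93 and 11.4 CPM with TCE-5002 (log2 2.66 ± 0.23, adjusted p = 1.96e-06). MCM10, a replication fork factor, rose from 4.34 and 2.79 CPM to 19.3 and 14.3 CPM (log2 2.21 ± 0.24). CDC45 (2.02), E2F1 (1.73), MCM3 (1.40), CCNE2 (1.35), MCM5 (1.34) and PCNA (1.26) rose too. The treated libraries were 2-fold or more above the controls in each of these. POLE, the catalytic subunit of the leading-strand polymerase, was the exception and fell from 144 and 148 CPM to 66.2 and 91.3 CPM (log2 -0.89). Of 20 genes of nucleotide synthesis 11 were higher and none was lower in edgeR's test, none at 2-fold, with CTPS1 (0.99) and RRM2 (0.96) at the top, and 7 were higher without R1881 replicate 2 and 1 was lower without TCE-5002 replicate 1. CCND1, the cyclin that starts G1 progression, rose from 112 and 123 CPM to 247 and 245 CPM (log2 1.07 ± 0.11), and among 12 cyclins D, CDK inhibitors and RB genes 3 were higher and 2 lower, with CCND3 at 0.87, CDKN2B at -1.56 and CDKN1B at -0.42. CDKN2B and CDKN1B did not pass without R1881 replicate 1, nor CDKN1B without R1881 replicate 2. Replication-dependent histone genes, whose transcripts mostly lack the poly(A) tail used here for capture, gave 2 of 13 higher and 7 lower. Their copies are near-identical, so H2BC4 (-1.79), H4C14 (-2.22) and H1-2 (0.63) are uncertain.

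The promoters of mitotic genes are known for a cell cycle genes homology region (CHR, TTTGAA) near CCAAT boxes, and those of replication genes for E2F sites. Windows of HMMR and PLK1, the mitotic genes with the largest falls whose 250 bases before the start hold both elements, and of E2F1, the replication gene with the largest rise whose window holds TTGGCGC, are shown with these letters in capitals on either strand. They lie at chr5:163460382-163460631 (plus), chr16:23678639-23678888 (plus) and chr20:33686386-33686635 (minus) of GRCh38.p14 (RefSeq).
HMMR: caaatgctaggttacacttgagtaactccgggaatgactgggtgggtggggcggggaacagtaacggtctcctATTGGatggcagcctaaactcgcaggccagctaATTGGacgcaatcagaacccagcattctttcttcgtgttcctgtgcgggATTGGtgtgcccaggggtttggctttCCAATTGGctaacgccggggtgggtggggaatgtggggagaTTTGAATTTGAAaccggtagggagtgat
PLK1: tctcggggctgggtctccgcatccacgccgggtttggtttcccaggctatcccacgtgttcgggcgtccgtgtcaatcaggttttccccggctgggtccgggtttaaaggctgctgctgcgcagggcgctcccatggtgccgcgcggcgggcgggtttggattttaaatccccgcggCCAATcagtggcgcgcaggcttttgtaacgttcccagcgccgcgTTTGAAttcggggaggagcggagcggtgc
E2F1: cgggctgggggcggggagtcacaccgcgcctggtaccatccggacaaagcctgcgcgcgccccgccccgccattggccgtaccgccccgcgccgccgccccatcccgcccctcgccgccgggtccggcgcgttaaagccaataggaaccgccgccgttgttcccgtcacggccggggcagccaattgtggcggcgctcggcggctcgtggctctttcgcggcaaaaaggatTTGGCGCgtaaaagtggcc
The HMMR window held 2 matches to TTTGAA and 5 to CCAAT, of which a pair overlaps. Of 25 mitotic genes with a promoter in the table, 17 (68.0%) held TTTGAA and CCAAT in the same window, against 5.61% of the 11759 tested genes and 0 of 31 replication genes. TTGGCGC was present in 10 of 31 replication genes (32.3%) and 5.86% of tested genes, and TTCCCGC in 15 (48.4%) and 12.2%. Among kept genes that fell, 12.1% of 447 had TTTGAA with CCAAT, and among those that rose 5.31% of 320 did. These matches describe the letters in the windows and not the binding of a factor.

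Genes of the integrated stress response, which ATF4 and related factors turn on when amino acids or protein folding are limiting, were lower in C4-2 cells with TCE-5002. Of 30 members 28 were lower and 1 was higher at the adjusted p-value, the median log2 fold change was -1.08, and 14 were kept as lower, against 16.7% lower and 3.99% kept as lower over all genes. The same 28 to 1 counts were obtained after the GC correction. Over all alternative fits, including those without a TCE-5002 or R1881 replicate, the median ran from -1.21 to -1.03. CHAC1, which degrades glutathione, was at 45.9 and 52.8 CPM with R1881 and at 10.9 and 12.2 CPM with TCE-5002 (log2 -2.09 ± 0.15, adjusted p = 4.75e-07). SLC6A9, a glycine transporter, fell from 117 and 131 CPM to 23.3 and 37.1 CPM (log2 -2.04 ± 0.17). No library of either group overlapped the other in these genes, which their choice by size of change favours. The same held for 65.0% of all genes tested, in either direction. DDIT3 (-1.97), the pro-apoptotic factor CHOP, SESN2 (-1.75), the cystine carrier SLC7A11 (-1.60), asparagine synthetase ASNS (-1.38) and TRIB3 (-1.34) fell and were kept. VLDLR gave -0.09 and did not pass. GDF15, a secreted stress cytokine, went the other way, from 262 and 335 CPM to 708 and 1230 CPM (log2 1.70 ± 0.20), or 1.32 after the GC correction.

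The CHAC1 window before one of its starts (chr15:40953221-40953470 of GRCh38.p14, plus strand, RefSeq) is shown for its match to the composite element of ATF4 and CEBP factors, TGATGNAA, here on the reverse strand.
CHAC1: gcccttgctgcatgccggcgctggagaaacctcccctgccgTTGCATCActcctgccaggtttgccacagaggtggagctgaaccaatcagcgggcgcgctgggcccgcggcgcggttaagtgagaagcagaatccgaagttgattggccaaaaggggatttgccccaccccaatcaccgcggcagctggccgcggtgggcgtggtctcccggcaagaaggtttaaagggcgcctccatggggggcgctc
The element was present in 7 of 25 stress response genes with a promoter in the table (28.0%), against 2.78% of tested genes. Among kept genes it was found in 8.72% of those that fell and in 2.19% of those that rose.

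Other parts of protein synthesis and folding were mixed. Of 20 cytosolic tRNA synthetases, 10 were lower and 4 higher (median -0.34), the latter a share close to that of all genes, with WARS1 falling from 446 and 443 CPM to 144 and 135 CPM (log2 -1.68 ± 0.11), GARS1 by 1.06, and FARSA (0.90) and VARS1 (0.79) rising. Of 19 endoplasmic reticulum chaperones and unfolded protein response genes 8 were lower and 2 higher (median -0.17). HSPA5, the main chaperone of that compartment, was at 2270 CPM in both R1881 libraries and at 1040 and 961 CPM with TCE-5002 (log2 -1.18 ± 0.11), HYOU1 fell by 1.43, and CALR rose by 0.61. Heat shock genes, of which HSPD1 and HSPE1 encode mitochondrial chaperones and the others cytosolic ones, had 9 of 13 higher and 1 lower (median 0.54), and 6 higher and 0 lower without R1881 replicate 1. HSPB1, a small heat shock protein, rose from 175 and 222 CPM to 531 and 837 CPM (log2 1.79 ± 0.22). HSPE1 (1.23) rose and HSPD1 (-0.39) was the lower member, which did not pass in the fits without TCE-5002 replicate 2 or either R1881 replicate, and the pair overlaps, which the counting did not separate by strand.

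Most genes of glycolysis and fatty acid synthesis were higher with TCE-5002. The counts of this paragraph stand beside 19.9% higher and 16.7% lower over all genes. Of 21 glycolysis genes 18 were higher and none was lower in edgeR's test, with a median log2 fold change of 0.89 (0.74 after the GC correction). ALDOC, an aldolase, went from 34.0 and 38.9 CPM to 130 and 161 CPM (log2 2.00 ± 0.13, adjusted p = 2.38e-07), and ENO2, an enolase, from 5.12 and 5.07 CPM to 16.1 and 34.5 CPM (log2 2.31 ± 0.27). The treated replicates of ENO2 differed from each other by more than 2-fold. LDHA (1.09), PKM (1.09) and GAPDH (0.98) rose at high level, and HK1 (0.08) and PFKFB4 (0.16) did not pass. Of 12 genes of fatty acid synthesis 8 were higher and 1 was lower (median 0.80). FASN, the fatty acid synthase, rose from 1120 and 1440 CPM to 3390 and 4870 CPM (log2 1.69 ± 0.20, adjusted p = 2.08e-05; 1.27 after the GC correction), the elongase ELOVL6 by 1.96, ELOVL5 by 1.59 and FADS2 by 1.58, while ACACB fell by 0.68. Cholesterol synthesis moved less, with 8 of 22 higher and none lower in edgeR's test (median 0.15; 8 and 1 after the GC correction, 8 and 3 without TCE-5002 replicate 1), led by EBP (1.24) and TM7SF2 (1.07, and 0.68 after the GC correction). TFRC, the transferrin receptor, rose from 271 and 285 CPM to 983 and 731 CPM (log2 1.62 ± 0.13), STEAP3 by 1.18, and 6 of 11 iron genes were higher and none lower in that test, or 4 higher without R1881 replicate 1. NRF2 targets gave 4 of 18 higher, a share near that of all genes, and 1 lower (3 and 3 after the GC correction, 4 and 4 without TCE-5002 replicate 1), with TKT (0.88) up and SLC7A11 down. Hypoxia genes gave 5 of 17 higher and 3 lower, with P4HA1 (1.01), EGLN3 (0.83), P4HA2 (-0.78) and LOX (-0.84), or 8 and 4 after the GC correction. EGLN3 did not pass without R1881 replicate 1, nor LOX without R1881 replicate 2. Of 5 metallothionein genes and their regulators tested 3 were lower, and MT2A fell from 66.3 and 76.2 CPM to 16.5 and 30.6 CPM (log2 -1.60) and MT1F by 1.61. Of 13 mitochondrially encoded genes 5 were lower and none was higher in edgeR's test, with MT-ND4L (-0.61) and MT-ND5 (-0.58) falling, and without R1881 replicate 1 or 2 the number lower was 3 or 1.

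**Figure D4:**
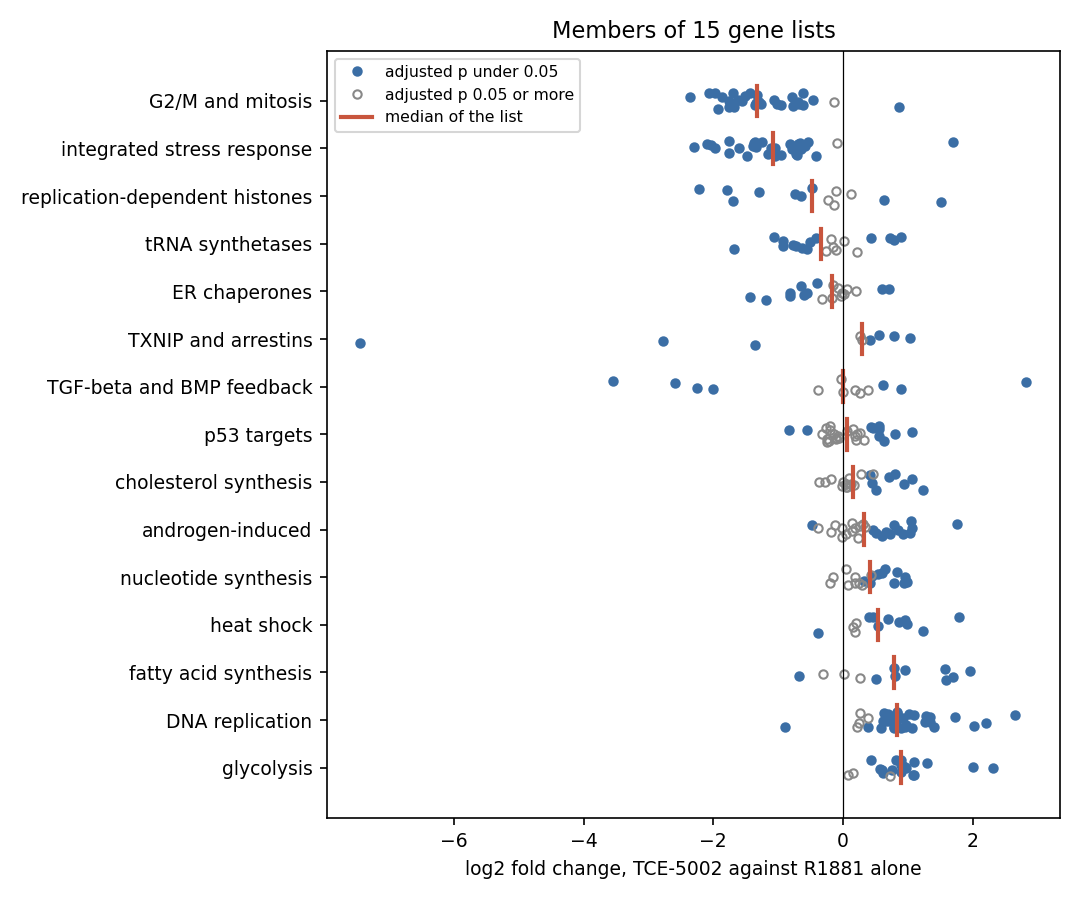
Log2 fold changes of TCE-5002 against R1881 alone (horizontal axis) for the members of 15 gene lists, 1 point per gene, filled where the adjusted p-value was under 0.05, with the median of each list as a red bar. Mitotic genes (median -1.33) and stress response genes (-1.08) lie mostly left of 0, and DNA replication (0.84) and glycolysis genes (0.89) mostly right of it.

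Androgen-induced genes that passed the test were mostly higher with TCE-5002 alone. Of 26 members 12 were higher and 1 was lower (median log2 fold change 0.33), at a background of 19.9% and 16.7%. At 2-fold 4 were higher, and 1 was kept, beside 2.64% kept as higher over all genes. After the GC correction 16 were higher and 4 lower. KLK3, which encodes prostate-specific antigen, was at 203 and 222 CPM with R1881 and at 396 and 477 CPM with TCE-5002. The groups did not overlap, as in 65.0% of all genes tested. The log2 fold change was 1.04 ± 0.15 (adjusted p = 0.000111), or 0.90 after the GC correction, under 2-fold. TMPRSS2 (ENSG00000184012, chromosome 21, 41464551 to 41531116), the serine protease gene that is often fused to ETS factors in prostate cancer, rose from 371 and 391 CPM to 1260 and 1320 CPM (log2 1.76 ± 0.12, adjusted p = 3.45e-07) and was kept. KLK2 (1.05), ALDH1A3 (1.06) and KLK4 (0.93) rose, FKBP5 (0.18) and SLC45A3 (-0.18) did not pass, and NCAPD3, at -0.48, did not pass without either R1881 replicate. Of 8 prostate lineage transcription factors tested 5 were higher and none was lower in edgeR's test (median 0.37). SPDEF, an ETS factor of luminal cells, rose from 81.3 and 99.7 CPM to 197 and 295 CPM (log2 1.44 ± 0.17; 1.03 after the GC correction), HOXB13 by 0.97, and FOXA1, at 370 and 392 CPM against 457 and 479 CPM, by 0.30 ± 0.11 (adjusted p = 0.048). FOXA1 did not pass with RLE size factors (adjusted p = 0.0607), with no filter (0.0822), in the fit on 4 libraries (0.136) or without R1881 replicate 1 (0.292) or 2 (0.137), and the lineage factors numbered 3 higher in the last 3 of these fits with edgeR. The exons of FOXA1 overlap TTC6. The UGT2B enzymes, which inactivate androgens by glucuronidation, gave 3 of 5 higher, with UGT2B17 from 6.74 and 5.83 CPM to 35.8 and 25.4 CPM (log2 2.27), UGT2B10 at 1.89 and UGT2B15 at 1.45. They are near-identical copies, so the split of reads between them is uncertain.

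Of 14 luminal markers 6 were higher and 3 lower, or 7 and 7 after the GC correction, with CLDN3 (1.39, and 0.79 after the GC correction) and SPINT2 (0.81) rising and the splicing factor ESRP1, from 218 and 206 CPM to 84.7 and 74.5 CPM (log2 -1.41), and CDH1 (-0.68) falling. Among the other marker lists 1 of 4 neuroendocrine genes tested was higher (ENO2), and of 6 mesenchymal and 2 lymphoid or myeloid genes none passed the adjusted p-value in edgeR's test. Without TCE-5002 replicate 1 the mesenchymal genes gave 2 higher and 1 lower, and without TCE-5002 replicate 2 they gave 0 and 1. Of the lists with no lower member in edgeR's test, MAPK output and cholesterol synthesis had 1 lower at an unadjusted p under 0.05, and nucleotide synthesis, glycolysis, iron, lineage factor and UGT2B genes had 0. Of the mesenchymal markers 1 was lower at an unadjusted p under 0.05, no lymphoid or myeloid marker passed it, no mitochondrially encoded gene was higher at it, and DESeq2 also called 0 in each of these.

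Genes that respond to TGF-beta and BMP signals showed a fall of the ID family, inhibitors of basic helix-loop-helix factors that BMP signals induce. ID1 was at 8.22 and 9.51 CPM with R1881 and at 0.659 and 0.843 CPM with TCE-5002 (log2 -3.55 ± 0.23, adjusted p = 2.42e-07). ID2 fell from 14.1 and 16.2 CPM to 2.38 and 2.63 CPM (log2 -2.59 ± 0.18), with ID2-AS1 on the same position. ID4 (-2.25) and ID3 (-2.0) fell as well, so all 4 ID genes were lower and kept, beside 3.99% kept as lower over all genes. The ligand BMP7 rose from 0.231 and 0.380 CPM to 2.18 and 2.11 CPM (log2 2.83 ± 0.43), and the inhibitory SMAD6 by 0.89, which did not pass without R1881 replicate 1. The list as a whole held 3 of 13 higher and 4 lower, with a median near 0, and 1 and 4 without R1881 replicate 1.

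Beside the same 19.9% and 16.7% of all genes, MAPK output genes gave 8 of 19 higher and none lower in edgeR's test (median 0.46), or 5 higher without R1881 replicate 1 and 7 and 1 without TCE-5002 replicate 1. FOS rested on 1 library, with 0.785 and 0.761 CPM with R1881 and 9.69 and 1.11 CPM with TCE-5002, and its log2 fold change of 2.80 was 0.50 without TCE-5002 replicate 1. VGF, a secreted neuropeptide precursor, went from 6.19 and 5.32 CPM to 11.5 and 18.4 CPM (log2 1.37, and 0.75 after the GC correction). Of 11 secreted peptide genes tested 4 were higher and 4 lower, or 4 and 2 without R1881 replicate 1. APLN, the ligand of the apelin receptor, rose from 4.85 and 5.39 CPM to 18.2 and 23.7 CPM (log2 2.04 ± 0.20), CALCA, the calcitonin gene, fell by 2.58, and STC2, a stanniocalcin, fell by 1.16. Notch genes gave 6 of 13 higher and 1 lower (median 0.56, and 0.18 after the GC correction), with 9 higher without TCE-5002 replicate 1 and 4 without TCE-5002 replicate 2 or R1881 replicate 1, the ligands DLL3 (1.43) up and JAG1 (-1.12) down and the target HES4 at 1.81. Interferon and antigen presentation genes gave 12 of 24 higher and 2 lower (median 0.56), mostly under 2-fold, as in MX1 (0.95), while IFIT2 fell by 1.90 and IRF1 by 0.59. Without either R1881 replicate 7 of them were higher and 1 was lower, and MX1 and IRF1 did not pass. Of 29 p53 targets 8 were higher and 2 lower (median 0.07), which became 9 and 8 without TCE-5002 replicate 1, 3 and 2 without R1881 replicate 1, 6 and 1 without R1881 replicate 2 and 8 and 6 after the GC correction, with KITLG at 1.06, DDB2 at 0.81, XPC at -0.56 and TP53I3 at -0.83. TP53I3 did not pass without TCE-5002 replicate 1 or R1881 replicate 2. BCL2 family genes gave 5 of 16 higher and 2 lower, or 7 and 3 without TCE-5002 replicate 1 and 4 and 1 without either R1881 replicate, with BOK (1.09, and 0.65 after the GC correction), BID (0.98), BMF (-0.80) and BCL2L11 (-0.42, not passing without either R1881 replicate), the last 3 being pro-apoptotic BH3-only genes. Circadian genes gave 4 of 15 in each direction, or 1 and 3 without R1881 replicate 1 and 2 and 3 without R1881 replicate 2, with HLF (1.51) and BHLHE40 (0.49, not passing without R1881 replicate 1) up and NR1D2 (-1.0) and PER2 (-0.80) down.

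Tubulin genes were looked at after their values had been seen. Of 14 alpha and beta tubulin genes tested 8 were higher and none was lower in edgeR's test, at an unadjusted p under 0.05 or with DESeq2, with a median log2 fold change of 0.75, and 5 were kept, beside 19.9% higher and 2.64% kept as higher over all genes. TUBA4A rose from 28.3 and 38.1 CPM to 147 and 149 CPM (log2 2.16 ± 0.14), and TUBA1B from 80.5 and 72.2 CPM to 197 and 192 CPM (log2 1.35 ± 0.11). Tubulin genes are similar in sequence, so reads shared between copies may have been left uncounted.

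The long non-coding RNAs named by the rule were COLCA1, BCRP3 and FAM30A, which rose, and ECI2-DT, LINC01133 and LINC00365, which fell. COLCA1 was at 7.16 and 6.40 CPM with R1881 and at 40.8 and 40.6 CPM with TCE-5002 (log2 2.58 ± 0.15), and it overlaps the protein-coding POU2AF3. LINC01133 fell from 13.3 and 12 CPM to 1.47 and 1.84 CPM (log2 -2.93 ± 0.25), and LINC00365 from 10.2 and 8.30 CPM to 1.32 CPM in both treated libraries (log2 -2.81 ± 0.29). The groups were separated by more than 5-fold in each. BCRP3 gave 2.42, FAM30A 2.34 and ECI2-DT -3.01 at levels of a few CPM.

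The effect of TCE-5002 was also measured on a namoline background, as combination against namoline, which shares no library with the comparison above. Over all genes 26.9% were higher and 29% lower there at the adjusted p-value. Of the 1175 kept genes 199 moved in the same direction with namoline present, 580 moved in the opposite direction, and 396 did not pass. The kept genes that rose without namoline had a median log2 fold change of 1.65 without it and -1.34 with it, with 39 in the same and 326 in the opposite direction. Those that fell had a median of -1.68 without it and 0.26 with it, with 160 in the same and 254 in the opposite direction. The difference of the 2 effects passed the threshold in 879 kept genes (74.8%), and in 35.3% of all genes tested, a comparison that the choice of genes with a large effect without namoline favours, since that effect enters the difference. Levels with namoline alone are the base of the other effect. Against the same R1881 libraries, namoline alone gave a median log2 fold change of 1.22 in the kept genes that rose with TCE-5002 and -1.34 in those that fell, so both effects share these controls. NPPC gave 2.08, IL2RB -6.58 and FYN -4.78 with namoline alone.

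**Figure D5:**
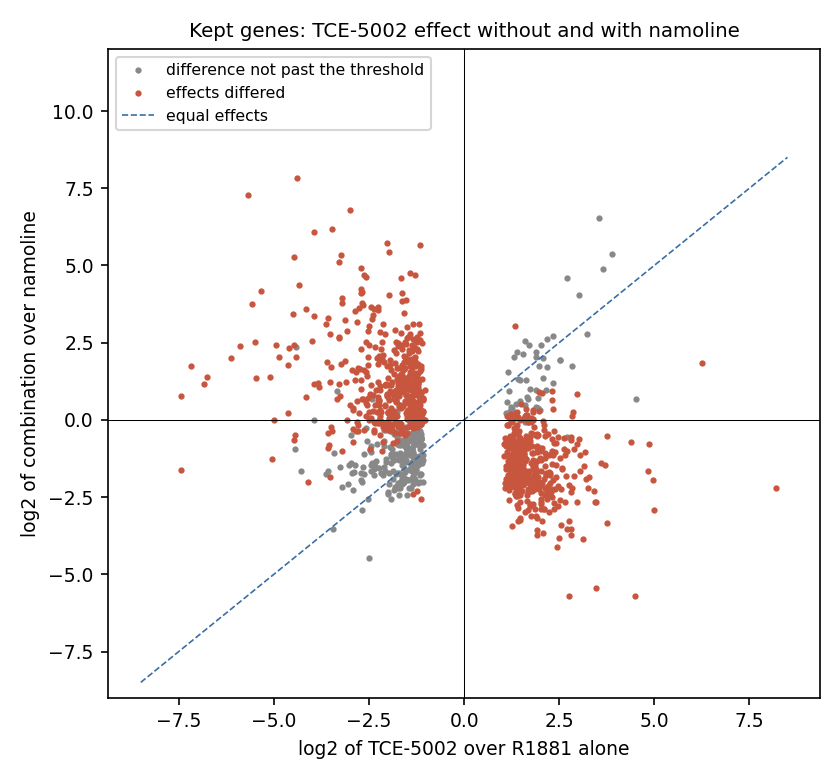
Log2 fold changes of the 1175 kept genes for TCE-5002 over R1881 alone (horizontal axis) and for the combination over namoline (vertical axis), in red where the difference of the effects passed the threshold (879 genes). Most genes that rose lie below 0 on the vertical axis, and the genes that fell lie on both sides of it.

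TMPRSS2, at a mean of 381 CPM with R1881 and 1290 CPM with TCE-5002, was at 776 CPM with namoline and at 210 CPM with the combination, a log2 fold change of -1.89 ± 0.12 on namoline (adjusted p = 2.67e-08). KLK3 was at 186 CPM with namoline and 46.6 CPM with the combination (log2 -2.0 ± 0.16). Androgen-induced genes as a list had 2 of 26 higher and 23 lower on namoline, and all 8 lineage factors were lower. DNA replication genes, which rose without namoline, had 1 of 34 higher and 30 lower with it (median -1.37). That comparison starts from the level with namoline. UHRF1 was at a mean of 1.6 CPM with R1881 alone, 27.5 CPM with namoline and 4.3 CPM with the combination. MCM10 was at 3.56, 51.5 and 9.31 CPM in the same order. POLE, the lower member without namoline, went the other way, with 146, 85.4 and 133 CPM. Mitotic genes were lower in both settings, with all 30 lower on namoline (median -1.87). HSPA5 went from 799 CPM with namoline to 6960 CPM with the combination (log2 3.12 ± 0.12), beside 2270 CPM with R1881 alone. The stress response list had 19 of 30 higher and 6 lower on namoline, against 1 and 28 without it. Its member CHAC1 was at a mean of 49.3 CPM with R1881 alone, 1.82 CPM with namoline and 12.5 CPM with the combination. SLC6A9 was at 124, 18.4 and 41.1 CPM in that order, so both stayed below R1881 alone. GDF15, at 299, 195 and 1050 CPM, rose above it. p53 targets had 28 of 29 higher with namoline present (median 1.66). KDM7A was at 58.4 CPM with namoline and 253 CPM with the combination (log2 2.12 ± 0.13). TXNIP was at 299 CPM with namoline and 96.8 CPM with the combination, so that it fell in both settings, by 7.44 without and by 1.62 with namoline on the log2 scale, and BCL11B, PNLIPRP3 and JAG1 also fell in both. Among the 12 coding genes that rose most, DIO3 and MACROD1 rose in both, and DIO3 reached 629 CPM with the combination (log2 5.37 ± 0.42).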

How the data were processed

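The 8 C4-2 libraries of polyadenylated RNA, 2 replicates per group, were analysed, and the 4 LNCaP libraries were not used. The authors trimmed adapters and removed reads of low quality, and aligned the rest with STAR to GRCh38. Per the file headers, the deposited counts are whole fragments per gene from featureCounts 1.5.0 on Ensembl release 83, without normalisation or strand. Genes overlapping on opposite strands therefore share counts, and fragments matching several genes were not counted. Of 60675 genes listed, 56558 had a symbol and 56996 a GC content (longest GENCODE transcript). Gene coordinates are those deposited, and promoters are from RefSeq.

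Genes passing filterByExpr were scaled by TMM and tested with the quasi-likelihood F test of edgeR 4.0.16 (R 4.3.3, limma 3.58.1) on all 8 libraries, with Benjamini-Hochberg adjustment over 17702 genes. A call required both an adjusted p below 0.05 and a change of 2-fold or more, and list counts used the adjusted p only. The SE was derived from the F statistic. The GC correction was a smooth offset of log2 count on GC content for each library. The effect with namoline was combination against namoline, and its difference from the effect without namoline was tested in the same model. Libraries held 14791602 or more counted fragments. On simulated counts (17003 genes) 99.5% of 200 genes changed by 2 on the log2 scale were recovered for TCE-5002 against R1881, with 5 called without a change. The simulated replicates were drawn independently, with no difference that ran with GC content. They therefore do not measure false calls from such a difference.

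The members, the 36 gene lists and the rules were chosen with earlier results of these data known. Named coding genes were the 12 largest changes in each direction among kept calls with at least 10 CPM in each library of the higher group and treated replicates within 2-fold, with 3 long non-coding RNAs in each direction at 2 CPM, up to 2 members of each list in each direction, and KDM7A, PHF8, KDM2A, KDM1A, KLK3, TMPRSS2 and FOXA1. List members outside that rule were added as examples after their values were seen. Some genes that the rule selects are not reported here. Alternatives were RLE scaling, no filter, DESeq2 1.42.0, a replicate block, the GC correction, both together, the 4 libraries alone, and leaving out each replicate.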

Additional observations from a re-analysis of the deposited data

Results flagged for a closer look

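The effect of TCE-5002 differed between the settings without and with namoline in 879 of the kept genes (interaction in edgeR's quasi-likelihood test, adjusted p under 0.05 and a difference of at least 1 on the log2 scale). Most of the genes named for the size of their change passed the same test, as did 35.3% of all genes tested. Their choice by a large effect without namoline favours passing, since that effect enters the difference. Each difference below is the log2 effect of TCE-5002 with namoline minus that without it.

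Among genes fixed by name, the difference was 2.71 for KDM7A, -1.15 for KDM1A, -3.03 for KLK3, -3.65 for TMPRSS2 and -2.4 for FOXA1. KDM7A, the gene of the enzyme that TCE-5002 inhibits, thus had a higher effect with namoline present, and KLK3, TMPRSS2, FOXA1 and KDM1A a lower one. Among the coding genes that rose most, it was -6.13 for NPPC, -3.63 for UBA7, -3.45 for KCNQ1, -4.86 for CA12, -5.11 for MAB21L4, -3.03 for SLC29A1, -4.25 for ZNF367, -4.64 for CKB, -3.46 for RAB3A, -4.55 for CDCA7 and -1.66 for MACROD1. In each of these the effect was lower with namoline present, and MACROD1 still rose there. For DIO3 the difference was 1.48 ± 0.91 (SE, adjusted p = 0.188 in edgeR's test) and did not pass.

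Among the coding genes that fell most, the difference was 5.81 for TXNIP, 7.93 for IL2RB, 1.68 for BCL11B, 7.16 for LAMP3, 2.22 for PNLIPRP3, 5.97 for TGM1, 6.39 for FIBIN, 2.62 for ARRDC4, 6.95 for MOV10L1, 7.3 for FYN, 3.14 for ID2 and 5.08 for COL16A1. In TXNIP, BCL11B and PNLIPRP3 the fall was smaller with namoline present and did not turn into a rise. BCL11B was at a mean of only 0.838 CPM with namoline and 0.227 CPM with the combination, which left little room for a fall. ARRDC4 gave -0.16 with namoline and did not pass there (adjusted p = 0.442 in edgeR's test). IL2RB, LAMP3, TGM1, FIBIN, MOV10L1, FYN, ID2 and COL16A1 were higher with the combination than with namoline. Mean levels with namoline were 0.289 CPM for IL2RB, 0.635 for FIBIN and 0.751 for FYN, with few counts behind them, and 11.1 for ID2 and 19.5 for COL16A1. With the combination only MOV10L1 (28.2 against 15.4 CPM) and ID2 (16.4 against 15.2 CPM) stood above the mean of R1881 alone. IL2RB was at 3.22 against 28.4 CPM and FYN at 19.4 against 20.8 CPM. Of the long non-coding RNAs, the difference was -4.17 for COLCA1, -3.87 for BCRP3, 3.49 for ECI2-DT, 2.21 for LINC01133 and 3.43 for LINC00365. For FAM30A it was 0.37 ± 0.7 (SE, adjusted p = 0.681 in edgeR's test) and did not pass. FAM30A rose in both settings, by 2.34 without and 2.7 with namoline, the latter from 2 and 1 counts.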

How the results depend on the processing

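The count of 2096 genes past the threshold was 2115 with RLE size factors, 2332 with no filter on low counts, 1668 with DESeq2, 1983 in the fit on the 4 libraries compared and 2159 after the GC correction. Without 1 TCE-5002 or R1881 replicate it ran from 1484 to 2342, and 1622 to 1654 of the calls were found again without a TCE-5002 replicate. At the adjusted p-value alone it was 6464, which is larger because the 2-fold limit is dropped, and 3397 and 4213 without R1881 replicate 1 and 2. The count of 6244 genes whose TCE-5002 effect differed with namoline ran from 5713 to 6592 without 1 replicate. With the replicate number as a block, the counts were 2129 and 6285, and 2133 and 6124 with the block and the GC correction together. Same-numbered R1881 and TCE-5002 libraries deviated together (r 0.486 over 9905 genes), and namoline and combination libraries did not (r -0.033). The 30 genes named by size of change passed under all 11 alternative fits they were given. Part of this was fixed by their choice. Only kept calls could be named, and keeping a call already required the GC-corrected fit and both fits lacking a TCE-5002 library. Picking the largest changes also favoured passing in the remaining fits. Over all 133 named genes and 1463 alternative values, none changed sign, and at the adjusted p-value with 2-fold 35 values lost a call and 32 gained one. At the adjusted p-value alone, 44 of the 1441 values of the 131 named genes that passed were lost, in 19 genes, 28 of them in the fits without an R1881 replicate. KLK3 passed in 7 of the 11 and FOS lost its call without TCE-5002 replicate 1. List medians changed sign under some alternative for the p53, NRF2, circadian, secreted peptide, TGF-beta and BMP, and KDM7 with KDM2 and KDM1 lists, and for 3 of the marker lists. The cause was not tested. The depth limits genes under about 1 CPM, where few counts stand behind each value.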
